A study of Mus musculus with 16 samples.

Results

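The 10 genes described here encode parts of the autophagy machinery and the cargo receptor p62. They are Sqstm1 (p62), Ulk1, Rb1cc1 (FIP200), Becn1 (Beclin 1), Wipi1, Map1lc3a, Map1lc3b, Gabarapl1, Gabarapl2 and Tfeb, and they were taken by gene symbol from the 55367 genes of the count tables. All 10 were present in the tables and passed the filter on low counts, as did 19509 genes in all. Macroautophagy encloses cytoplasm in a double membrane and brings it to the lysosome. A kinase complex that holds ULK1 and FIP200 starts the process, a lipid kinase complex that holds Beclin 1 makes a phosphoinositide on the forming membrane, WIPI proteins bind that lipid, and proteins of the LC3 and GABARAP families are attached to the growing membrane. p62 links ubiquitinated cargo to LC3, is broken down together with the cargo, and also binds Keap1, the protein that holds Nrf2 in check, while its own gene is a known target of Nrf2. TFEB is a transcription factor that turns on lysosomal and autophagy genes when nutrient signalling is low.

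RNA sequencing was carried out in mIMCD3 cells, a line from the inner medullary collecting duct of the mouse kidney, with the question of how Nrf2 and its activator SFN (sulforaphane) shape the response to hyperosmotic stress. The design held 8 conditions with 2 biological replicates each, 16 libraries in all. The 12 WT libraries came from cells given the solvent DMSO or 10 µM SFN for 5 h and then collected without stress (isosmotic, 300 mOsm) or after 1 h or 6 h in medium of 600 mOsm. The 4 Nrf2-/- libraries all came from SFN-treated cells, collected isosmotic or after 1 h of stress. The Nrf2-/- line was made in mIMCD3 cells with Cas9 and a guide RNA delivered by lentivirus and selected with blasticidin and puromycin. Whether it was 1 clone or a pool is not given in the sources used here. Nrf2-/- cells with DMSO, Nrf2-/- cells at 6 h and isosmotic cells kept for 6 h after SFN were not analysed here. The effect of Nrf2 loss therefore cannot be told apart from other differences between the lines, and the effect of 6 h of stress cannot be told apart from the added time in culture. Only RNA was measured, which gives the level of a transcript and not the rate of autophagy.

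Total counts per library lay between 34484296 and 50774875, and the 10 genes were covered by 264 to 22223 counts per library. Nfe2l2, the gene of Nrf2, had 386 to 433 counts in the Nrf2-/- libraries and 2496 to 5013 in the WT libraries. The keratins, E-cadherin and Hoxb7 of duct epithelium were expressed throughout, with 10 of 12 listed duct markers reaching 1 CPM, whereas Aqp2, which defines principal cells in the kidney, stayed at or below 0.323 CPM and Aqp3 at or below 0.821 CPM. Markers of proximal tubule, fibroblasts, endothelium and immune cells were summed within each class. The highest sum in any library was 27.5 CPM, for proximal tubule in WT cells. In these classes 1 CPM was reached by 2 of 4 proximal tubule and 1 of 4 fibroblast markers. The same level was reached by 2 of 3 endothelial and 2 of 3 immune markers. The fibroblast marker Dcn did not pass 0.0881 CPM. The libraries of the Nrf2-/- SFN 1 h condition stood apart from each other. Their biological coefficient of variation was 0.348, compared with 0.0393 to 0.128 in the other 7 conditions, and 21.8% of genes differed more than 2-fold between them. Both entered the shared estimate of the spread, so results are also given without them where it matters.

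GC boxes stood in every promoter window searched. RefSeq (GRCm38.p6) held 9 transcription starts for 7 of the genes, and the 250 bases upstream of each start were searched on both strands. A GC box, GGGCGG, was found in 9 of 9 windows and in 32.7% of 32851 mouse windows of the same length. The core of a cAMP response element, TGACGT, was found only upstream of Gabarapl2 among the 9 and in 6.47% of all windows. The antioxidant response element TGACNNNGC that Nrf2 binds (10.2% of all windows), the CACGTG core of the element that TFEB binds (6.02%), the tonicity element TGGAAA of Nfat5 (18.6%) and the C/EBP-ATF element TGATGNAA (3.45%) had no match in the 9 windows. These counts describe letters in a short window only, and elements farther away were not searched. The windows of the receptor gene Sqstm1, of Gabarapl2, whose transcript had the largest increase at 6 h among the 10, and of the kinase gene Ulk1 are shown 5′ to 3′ on the strand of the gene, cut at the first base of the annotated gene, with motif matches in capitals. They lie at chr11:50210828-50211070 (minus strand), chr8:111940453-111940702 (plus strand) and chr5:110810098-110810331 (minus strand).
Sqstm1: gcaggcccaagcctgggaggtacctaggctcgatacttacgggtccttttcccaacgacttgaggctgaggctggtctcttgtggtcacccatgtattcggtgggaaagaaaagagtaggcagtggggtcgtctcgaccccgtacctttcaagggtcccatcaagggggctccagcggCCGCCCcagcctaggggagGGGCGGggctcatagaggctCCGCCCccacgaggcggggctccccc
Gabarapl2: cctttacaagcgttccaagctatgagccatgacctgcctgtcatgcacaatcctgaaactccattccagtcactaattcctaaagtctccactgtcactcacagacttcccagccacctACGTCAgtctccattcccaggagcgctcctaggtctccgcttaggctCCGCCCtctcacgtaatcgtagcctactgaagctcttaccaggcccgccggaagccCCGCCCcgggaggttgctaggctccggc
Ulk1: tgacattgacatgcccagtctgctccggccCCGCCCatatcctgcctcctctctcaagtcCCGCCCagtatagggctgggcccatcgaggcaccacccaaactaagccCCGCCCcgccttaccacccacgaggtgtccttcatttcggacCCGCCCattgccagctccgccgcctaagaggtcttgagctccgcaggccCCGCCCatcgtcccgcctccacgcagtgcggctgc
The capitals mark GC boxes, read as GGGCGG or its reverse complement CCGCCC, and in Gabarapl2 also ACGTCA, the reverse complement of the cAMP response element core.

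The genes are spread over 7 chromosomes in GRCm38 (GENCODE M21). Sqstm1 lies at chr11:50199366-50210827, Becn1 at chr11:101285952-101302286 and Wipi1 at chr11:109573331-109611967, all on the minus strand, as is Ulk1 at chr5:110784488-110810097. On the plus strand lie Map1lc3a at chr2:155276297-155278073, Map1lc3b at chr8:121590361-121598760, Gabarapl2 at chr8:111940703-111953612, Gabarapl1 at chr6:129533160-129542346, Tfeb at chr17:47737030-47792419 and Rb1cc1 at chr1:6206197-6276648. Exons of 5 of them overlap a gene on the other strand, and whether counting used the strand is not given in the sources used here. The neighbour was weakly counted for Sqstm1 (Mrnip, 31 to 222 counts per library), Gabarapl1 (1700101I11Rik, 0 to 13), Becn1 (Cntd1, 8 to 53) and Rb1cc1 (4732440D04Rik, 9 to 147). It was well expressed for Map1lc3b (Zcchc14, 3651 to 6663 counts), with which 58 exon bases are shared. The overlap was longest for Becn1, with 3104 of its 7065 exon bases shared. Sqstm1 shared 580 of 3356, Gabarapl1 570 of 2013 and Rb1cc1 558 of 14690. The effect of these overlaps on the counts was not tested.

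Sqstm1 was the most abundant of the 10 transcripts per length. In isosmotic DMSO-treated WT cells, its level was 97.6 ± 2.41 CPM per kilobase of exon (CPM, counts scaled to library size after TMM normalization, mean ± SD, n = 2). Gabarapl2 followed with 38.9 ± 2.13, Map1lc3a with 23.8 ± 1.70 and Gabarapl1 with 18.3 ± 0.113 CPM per kilobase. Becn1, Map1lc3b and Ulk1 lay between 9.35 and 12.3, with overlapping libraries for Becn1 and Map1lc3b, and Rb1cc1 (4.43), Wipi1 (3.54) and Tfeb (1.94) were lowest. In this condition all other neighbours in the order were separated in both libraries. Sqstm1 and Gabarapl2 kept the first and second place in all 8 conditions and Tfeb the last. In Nrf2-/- cells under isosmotic conditions Map1lc3a, at 7.71 ± 2.41 CPM per kilobase, had moved behind Becn1, with which it overlapped, and Ulk1, at 14.3 ± 0.0978, stood directly behind Gabarapl2. The condition means of a gene spanned from 0.25 on the log2 scale for Tfeb to 1.77 for Rb1cc1. The range was smaller than that of Tfeb in only 0.671% of the genes tested and smaller than that of Rb1cc1 in 54.9%.

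**Figure D1:**
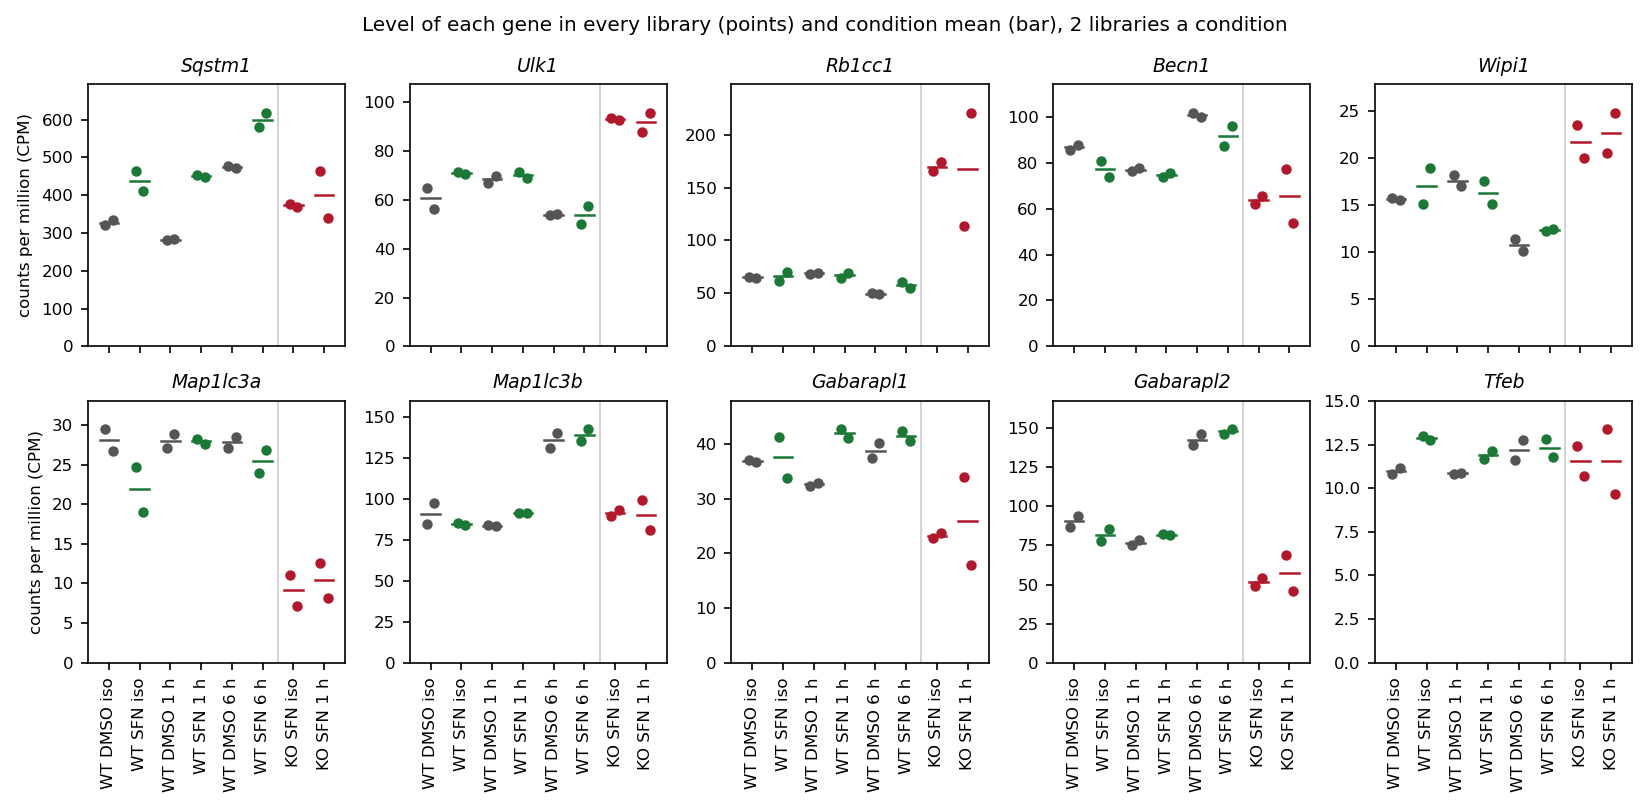
Level of the 10 genes in CPM after TMM normalization (y axis, from 0), one panel a gene, across the 8 conditions (x axis). Points are single libraries and bars the mean of 2 libraries, grey for WT DMSO, green for WT SFN and red for Nrf2-/- SFN (KO), with iso for isosmotic. Sqstm1 lies higher in each green than in the preceding grey condition, and Rb1cc1 lies between 113 and 221 CPM in the red libraries but at 70.7 CPM or below in every WT library.

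In WT cells, Sqstm1 was higher with SFN than with DMSO in every library at all 3 time points, but it did not pass the test across all genes. Its levels were 322 and 333 CPM with DMSO and 463 and 412 CPM with SFN under isosmotic conditions. After 1 h of stress they were 282 and 283 CPM with DMSO and 452 and 448 CPM with SFN, and after 6 h 476 and 473 CPM with DMSO and 580 and 619 CPM with SFN. The libraries of the 2 treatments did not overlap at any time, and the gap was widest at 1 h. The log2 fold change was 0.42 (SE 0.12, adjusted p = 0.0924, edgeR's quasi-likelihood test) under isosmotic conditions, 0.67 (SE 0.12, adjusted p = 0.0682) at 1 h and 0.34 (SE 0.12, adjusted p = 1) at 6 h. These correspond to 1.33-fold, 1.59-fold and 1.26-fold higher levels. With the same contrasts fitted without both Nrf2-/- SFN 1 h libraries, an alternative chosen after the data were seen, the fold changes were nearly the same (0.41, 0.67 and 0.33) with SEs of 0.07, and all 3 passed (adjusted p = 0.000125, 7.63e-07 and 0.0307). DESeq2 called the first 2 of them (adjusted p = 0.00576 and 8.94e-06) and not that at 6 h (0.665).

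None of the 10 genes was called in either direction in the 3 SFN comparisons. Over all genes, 1.09% were called higher and 1.76% lower under isosmotic conditions, 0.0923% and 0% at 1 h, and 0.041% and 0% at 6 h, so a call was rare for any gene. DESeq2 called 1 of the 10 under isosmotic conditions, 1 at 1 h (Sqstm1 in both) and none at 6 h. Of 12 listed duct markers, 4 (Krt8, Krt18, Krt19 and Cdh1) were called lower with SFN under isosmotic conditions, and their part in these values was not tested. At an unadjusted p under 0.05, Sqstm1 was found in all 3 comparisons and Ulk1 under isosmotic conditions only. Ulk1, the initiating kinase, had 64.9 and 56.4 CPM with DMSO and 71.4 and 70.8 CPM with SFN (log2 fold change 0.23, SE 0.10, adjusted p = 0.29). Gabarapl1, an ATG8 protein of the GABARAP branch, had 32.2 and 32.9 CPM with DMSO and 42.7 and 41.1 CPM with SFN at 1 h. It was called there only when the 4 libraries compared were fitted alone (log2 fold change 0.36, adjusted p = 0.00065). The other ATG8 genes, Becn1, Wipi1, Rb1cc1 and Tfeb showed no SFN difference at an unadjusted p under 0.05. Intervals for all 10 are drawn in the plot of log2 differences.

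Beside 6 classical Nrf2 targets, the SFN difference of Sqstm1 was the lowest of the 7 genes under all 3 conditions, and differences between genes were not tested. Hmox1 (heme oxygenase), Nqo1 (a quinone reductase), Srxn1 (sulfiredoxin), Slc7a11 (the cystine transporter), Gclm (a subunit for glutathione synthesis) and Txnrd1 (thioredoxin reductase) were all 6 higher with SFN under isosmotic conditions, by 0.64 to 2.39 on the log2 scale, and at 1 h, by 1.17 to 2.33. At 6 h, 2 of the 6 were called higher, Srxn1 (0.55) and Gclm (0.59), and the differences of the 6 ran from 0.37 to 1.26. The SFN difference of Sqstm1 under stress was not shown to differ from that under isosmotic conditions, neither at 1 h (difference of 0.25 on the log2 scale, SE 0.17, adjusted p = 0.804) nor at 6 h (−0.08, SE 0.17, adjusted p = 0.98). None of the 10 genes was called in these 2 tests of the difference by edgeR or DESeq2 or had an unadjusted p under 0.05, compared with 0.559% of all genes at 1 h and 0.759% at 6 h.

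**Figure D2:**
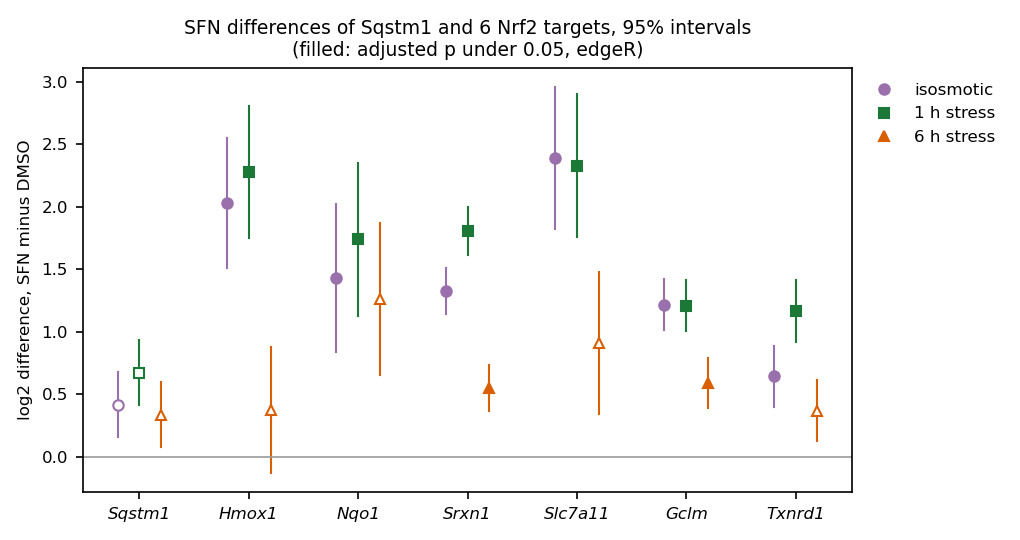
Log2 difference between SFN and DMSO in WT cells (y axis) for Sqstm1 and 6 Nrf2 targets (x axis), under isosmotic conditions (circles), after 1 h (squares) and after 6 h (triangles) of stress. Lines are 95% intervals from edgeR and filled symbols have an adjusted p under 0.05. Sqstm1 lies at 0.42, 0.67 and 0.34, below the targets at each time.

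None of the 10 genes was called after 1 h of stress in DMSO-treated WT cells (7.1% of all genes higher and 4.11% lower), in SFN-treated WT cells (5.94% and 3.58%) or in SFN-treated Nrf2-/- cells (4.36% and 2.81%). None had an unadjusted p under 0.05, and DESeq2 called none. In DMSO-treated cells Sqstm1 had 322 and 333 CPM before and 282 and 283 CPM after 1 h, which do not overlap (log2 fold change −0.21, SE 0.12, adjusted p = 0.32). Without both Nrf2-/- SFN 1 h libraries this decrease was called (−0.22, adjusted p = 0.0206), together with that of Gabarapl2 (−0.24, adjusted p = 0.0233), whose levels were 87.0 and 94.0 CPM before and 75.3 and 78.2 CPM after. In SFN-treated WT cells Sqstm1 stayed between 412 and 463 CPM, and the log2 fold change was 0.04 (SE 0.12, adjusted p = 0.914). In Nrf2-/- cells it had 376 and 370 CPM before and 464 and 339 CPM after (0.11, SE 0.12, adjusted p = 0.7). Here 1 library decides the direction, since the value was −0.15 without replicate 1 and 0.32 without replicate 2 of the stressed libraries. The directions of Rb1cc1 and Gabarapl1 likewise depended on which stressed library was left out. No gene of the 10 was called in the test of whether the 1 h response differed between Nrf2-/- and WT cells, compared with 0.123% of all genes, and Sqstm1 had a difference of 0.07 (SE 0.17, adjusted p = 1).

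After 6 h of stress, p62 and a pair of ATG8 genes were higher and the phagophore gene Wipi1 was lower, both with DMSO and with SFN. With DMSO, Gabarapl2, Map1lc3b and Sqstm1 were called higher (3 of 10, compared with 23.9% of all genes) and Wipi1 lower (1 of 10, compared with 22% of all genes), a share of calls close to that of the transcriptome as a whole. With SFN, the same 3 were called higher (24.7% of all genes) and Wipi1 and Ulk1 lower (22.9% of all genes). The median log2 fold change of the 10 was 0.11 with DMSO and 0.18 with SFN, beside 0.05 and 0.09 over all genes tested. Scaling by RLE size factors moved the all-gene median with DMSO to 0.14 and changed no direction among the genes called. Of 12 listed duct markers, 6 (Pax2, Pax8, Cdh1, Epcam, Hoxb7 and Krt19) were called higher and Krt8 lower at 6 h with DMSO, and their part in these values was not tested.

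Gabarapl2 (GATE-16), an ATG8 protein of the GABARAP branch, had 87.0 and 94.0 CPM with DMSO before stress and 139 and 146 CPM at 6 h. With SFN its levels were 78.0 and 85.8 CPM before and 146 and 150 CPM at 6 h. Both stressed pairs lay above all other 12 libraries. The log2 fold change was 0.66 with DMSO (SE 0.14, adjusted p = 0.0016) and 0.85 with SFN (SE 0.14, adjusted p = 0.000189), a 1.57-fold and 1.81-fold increase. Map1lc3b, which encodes the LC3B protein widely used to mark autophagosomes, had 84.5 and 97.1 CPM with DMSO before stress and 131 and 140 CPM at 6 h. With SFN it had 85.1 and 83.7 CPM before and 135 and 143 CPM at 6 h. The 4 libraries at 6 h lay above the other 12 here as well, which reached at most 99.0 CPM. The log2 fold change was 0.58 with DMSO (SE 0.11, adjusted p = 0.000452) and 0.72 with SFN (SE 0.11, adjusted p = 6.9e-05). The remaining ATG8 genes of the 10 were not called: Map1lc3a stayed between 23.9 and 28.5 CPM and Gabarapl1 between 37.3 and 42.3 CPM in the libraries at 6 h.

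Sqstm1 at 6 h (476 and 473 CPM with DMSO, 580 and 619 CPM with SFN) was above its isosmotic level in the same treatment in every library. The log2 fold change was 0.53 with DMSO (SE 0.12, adjusted p = 0.00237) and 0.46 with SFN (SE 0.12, adjusted p = 0.00673). The SFN value lost its call without replicate 2 of the isosmotic SFN libraries (0.36, adjusted p = 0.0852) and without replicate 2 of the 6 h SFN libraries (0.40, adjusted p = 0.0617). Wipi1, which binds the lipid made by the Beclin 1 complex, went from 15.7 and 15.5 CPM to 11.4 and 10.2 CPM with DMSO, a log2 fold change of −0.54 (SE 0.15, adjusted p = 0.00991). With SFN it went from 15.1 and 18.9 CPM to 12.2 and 12.5 CPM (−0.47, SE 0.15, adjusted p = 0.0205). The groups did not overlap in either treatment, but the call was lost in 6 of 12 alternatives with SFN, DESeq2 included (−0.40, adjusted p = 0.0553), and with DMSO without replicate 2 of the 6 h libraries (−0.47, adjusted p = 0.0855). Ulk1 was called with SFN, at 71.4 and 70.8 CPM before and 50.2 and 57.6 CPM at 6 h (−0.40, SE 0.10, adjusted p = 0.00459), and lost the call without replicate 1 of the 6 h libraries (−0.31, adjusted p = 0.0693). With DMSO its libraries, 64.9 and 56.4 CPM before and 53.6 and 54.4 CPM after, did not pass. Without both Nrf2-/- SFN 1 h libraries, Ulk1, Rb1cc1 and Wipi1 were called lower and Becn1 higher beside the other 3 with both DMSO and SFN, so that 7 of 10 genes were called in each. In that fit 10890 of 19209 genes were called in either direction with DMSO and 11226 with SFN. The test of whether the 6 h change differed between SFN and DMSO called none of the 10.

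Between 1 h and 6 h of stress in DMSO-treated cells, 6 of the 10 genes changed. Gabarapl2 (log2 fold change 0.89, SE 0.14), Sqstm1 (0.75, SE 0.12), Map1lc3b (0.70, SE 0.11) and Becn1 (0.39, SE 0.13) were called higher at 6 h (4 of 10, beside 20.4% of all genes). Wipi1 (−0.71, SE 0.15) and Ulk1 (−0.34, SE 0.10) were called lower (2 of 10, beside 22% of all genes). Becn1, the Beclin 1 gene, had 76.3 and 77.8 CPM at 1 h and 102 and 99.9 CPM at 6 h (adjusted p = 0.0277). Ulk1 went from 67.0 and 69.8 CPM to 53.6 and 54.4 CPM (adjusted p = 0.0132). The libraries at 1 h and 6 h did not overlap for any of the 6 genes, which were picked by their calls in these same libraries. The share of all genes without overlap was not determined. Becn1 lost its call when any of the 4 libraries was left out (adjusted p from 0.0938 to 0.138), and Ulk1 lost it without DMSO 1 h replicate 2 (−0.32, adjusted p = 0.091), without either DMSO 6 h library (−0.34 and −0.36) and with no filter on low counts (−0.35, adjusted p = 0.052). Rb1cc1, which encodes the scaffold FIP200, had 68.6 and 69.2 CPM at 1 h and 50.5 and 49.0 CPM at 6 h (−0.47, SE 0.21, adjusted p = 0.0822). This comparison shares its 6 h libraries with the one against isosmotic cells, and the 2 are not independent.

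**Figure D3:**
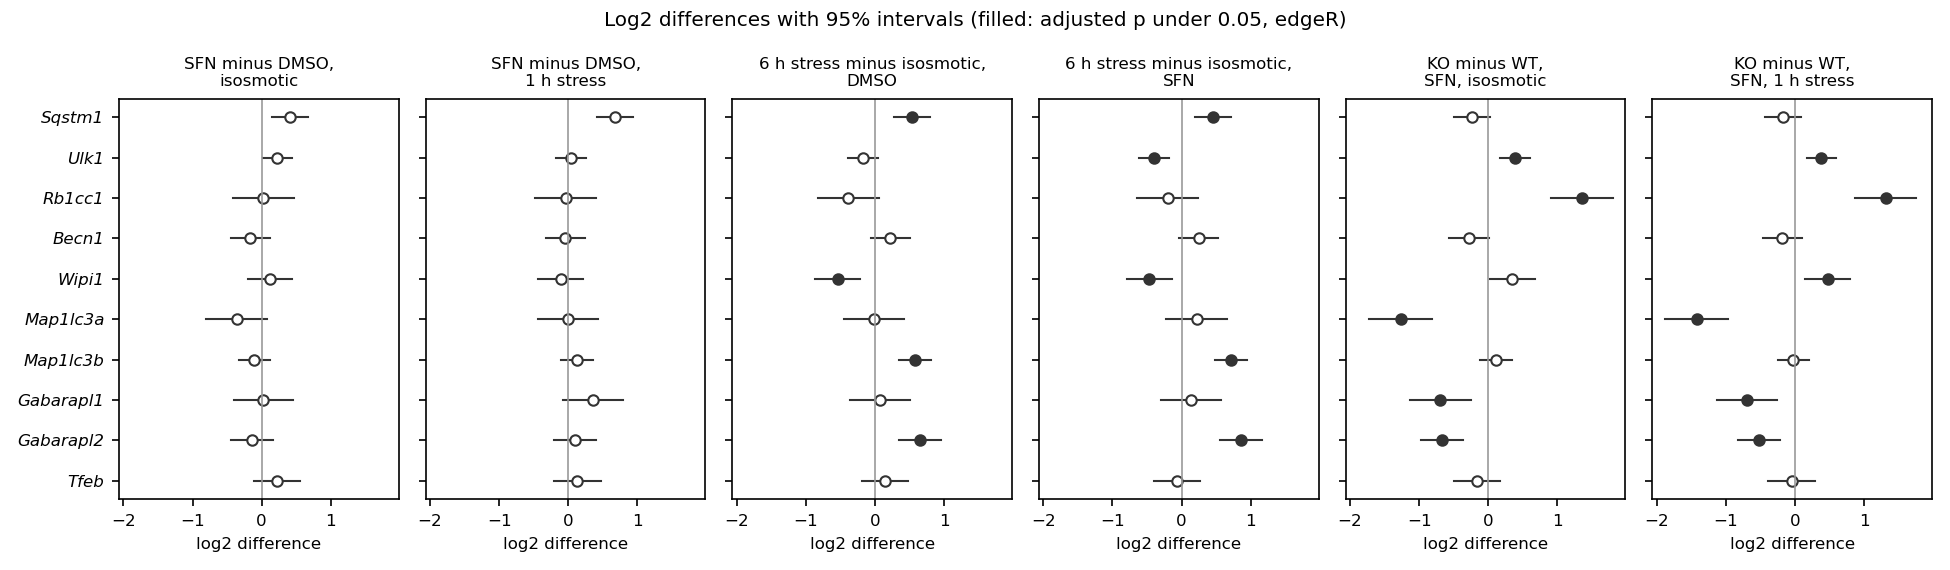
Log2 differences (x axis) of the 10 genes (rows) in 6 comparisons, SFN against DMSO in WT cells (left pair), 6 h of stress against isosmotic WT cells (middle pair) and Nrf2-/- (KO) against WT cells with SFN (right pair). Lines are 95% intervals from edgeR, filled points have an adjusted p under 0.05. No point is filled in the SFN panels, Gabarapl2, Map1lc3b and Sqstm1 are filled to the right at 6 h, and Rb1cc1 (1.36 and 1.31) and Map1lc3a (−1.26 and −1.42) lie farthest out in the Nrf2-/- panels.

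With SFN in both lines, levels of Rb1cc1 and Ulk1 were higher and those of 3 ATG8 genes lower in Nrf2-/- than in WT cells. Under isosmotic conditions Rb1cc1 and Ulk1 were called higher (2 of 10, with 15.7% of all genes called higher) and Map1lc3a, Gabarapl1 and Gabarapl2 lower (3 of 10, with 18.4% of all genes called lower). After 1 h of stress Rb1cc1, Wipi1 and Ulk1 were called higher (15.3% of all genes) and the same 3 ATG8 genes lower (16.2% of all genes). With 10 genes these counts are small, and nothing particular to the 10 is read from them. Gabarap, the remaining ATG8 gene measured, was called lower too, by 0.71 on the log2 scale under isosmotic conditions and by 0.53 at 1 h. The 3 other listed genes of the ULK complex, Ulk2, Atg13 and Atg101, all had negative log2 fold changes under both conditions. Atg101 was called lower in both (−0.63 each), and Ulk2 and Atg13 were not called. In a bulk sample, fewer cells with a transcript and less of it per cell cannot be told apart. The median log2 fold change of the 10 was −0.19 under isosmotic conditions and −0.11 at 1 h, beside 0.00 and −0.02 over all genes tested.

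Rb1cc1 had 61.8 and 70.7 CPM in WT and 165 and 174 CPM in Nrf2-/- cells under isosmotic conditions, a log2 fold change of 1.36 (SE 0.21, adjusted p = 0.000154). At 1 h it had 64.9 and 69.5 CPM in WT and 113 and 221 CPM in Nrf2-/- cells (1.31, SE 0.21, adjusted p = 0.00023). The 4 Nrf2-/- libraries lay above all 12 WT libraries. Without replicate 1 or 2 of the Nrf2-/- SFN 1 h libraries the value at 1 h was 1.73 or 0.75, and it was called in both cases. Map1lc3a, an LC3 gene, had 24.7 and 19.0 CPM in WT and 11.1 and 7.09 CPM in Nrf2-/- cells (−1.26, SE 0.21, adjusted p = 0.000317). At 1 h it had 28.2 and 27.6 CPM in WT and 12.6 and 8.22 CPM in Nrf2-/- cells (−1.42, SE 0.21, adjusted p = 0.000126). All Nrf2-/- libraries lay below all WT libraries, with a 2.40-fold and a 2.68-fold lower mean, and the call held under every alternative run.

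Gabarapl2 had 78.0 and 85.8 CPM in WT and 48.8 and 54.1 CPM in Nrf2-/- cells under isosmotic conditions (−0.67, SE 0.14, adjusted p = 0.00197). At 1 h it had 82.0 and 81.6 CPM in WT and 68.6 and 45.7 CPM in Nrf2-/- cells (−0.52, SE 0.14, adjusted p = 0.0119). Gabarapl1 had 41.3 and 33.8 CPM in WT and 22.7 and 23.7 CPM in Nrf2-/- cells under isosmotic conditions (−0.69, SE 0.20, adjusted p = 0.0164). These values of Gabarapl1 and Gabarapl2 did not overlap. At 1 h Gabarapl1 had 42.7 and 41.1 CPM in WT and 34 and 17.8 CPM in Nrf2-/- cells (−0.69, SE 0.20, adjusted p = 0.0177). Without replicate 1 of the Nrf2-/- SFN 1 h libraries this was −1.22, and without replicate 2 it was −0.30 and no longer called (adjusted p = 0.0605). The corresponding values for Gabarapl2 were −0.83 and −0.26, both called. Gabarapl1 under isosmotic conditions kept its call in 8 of 11 alternatives and lost it without WT replicate 1 (−0.55, adjusted p = 0.137) and without either Nrf2-/- library (adjusted p = 0.0937 and 0.0729). At 1 h without either WT library the adjusted p was 0.0847 and 0.0617 for Gabarapl1 and 0.0618 and 0.0586 for Gabarapl2. Map1lc3b, with 89.6 and 93.2 CPM in Nrf2-/- cells under isosmotic conditions and 99.0 and 80.7 CPM at 1 h, was not called.

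Ulk1 had 71.4 and 70.8 CPM in WT and 93.5 and 92.6 CPM in Nrf2-/- cells under isosmotic conditions (0.39, SE 0.10, adjusted p = 0.0074). At 1 h it had 71.5 and 68.9 CPM in WT and 87.6 and 95.8 CPM in Nrf2-/- cells (0.39, SE 0.10, adjusted p = 0.00861). Wipi1 had 17.5 and 15.1 CPM in WT and 20.5 and 24.8 CPM in Nrf2-/- cells at 1 h (0.47, SE 0.15, adjusted p = 0.0267), and at 0.35 (SE 0.15, adjusted p = 0.0867) it was not called under isosmotic conditions. For both genes the 4 Nrf2-/- libraries lay above all 12 WT libraries, but for Wipi1 at 1 h the call was lost with no filter on low counts (adjusted p = 0.0593), without replicate 2 of the Nrf2-/- libraries (0.33, adjusted p = 0.131) and without either WT library (0.58 and 0.37). Ulk1 lost its call under isosmotic conditions without either WT library (adjusted p = 0.0517 and 0.0514), and at 1 h likewise (adjusted p = 0.0503 and 0.0897). When only the 4 libraries at 1 h were fitted, Map1lc3a alone of the 6 genes was called (−1.42, adjusted p = 0.0387), and Rb1cc1 had an adjusted p of 0.084.

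Sqstm1 in SFN-treated Nrf2-/- cells, at 376 and 370 CPM, lay below both SFN-treated WT libraries (463 and 412 CPM) and above both DMSO-treated WT libraries (322 and 333 CPM). Against SFN-treated WT cells the log2 fold change was −0.23 (SE 0.12, adjusted p = 0.167), and against DMSO-treated WT cells it was 0.19 (SE 0.12, adjusted p = 0.251). Both were called without the Nrf2-/- SFN 1 h libraries (−0.21, adjusted p = 0.0117, and 0.20, adjusted p = 0.0138). Of the 6 classical targets, 5, all but Slc7a11, were called lower in Nrf2-/- than in WT cells with SFN, with Srxn1 at 22.0 and 21.3 CPM against 212 and 200 CPM and Hmox1 at 37.6 and 49.5 CPM against 327 and 308 CPM. Slc7a11 was called higher, by 0.84 on the log2 scale. At 1 h Sqstm1 had 452 and 448 CPM in WT and 464 and 339 CPM in Nrf2-/- cells, which overlap (−0.16, SE 0.12, adjusted p = 0.342), and the value was −0.40 without replicate 1 and 0.04 without replicate 2 of the Nrf2-/- libraries.

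Compared with DMSO-treated rather than SFN-treated WT cells under isosmotic conditions, SFN-treated Nrf2-/- cells gave 7 calls among the 10. Rb1cc1 (1.38, SE 0.21), Ulk1 (0.62, SE 0.10) and Wipi1 (0.47, SE 0.15) were higher, with 18% of all genes called higher. Map1lc3a (−1.63, SE 0.21), Gabarapl2 (−0.82, SE 0.14), Gabarapl1 (−0.67, SE 0.20) and Becn1 (−0.44, SE 0.13) were lower, with 20.8% of all genes called lower. Becn1 had 85.5 and 87.9 CPM in these WT cells and 61.9 and 65.6 CPM in Nrf2-/- cells (adjusted p = 0.0155), which do not overlap. Leaving out 1 library ended the call of Gabarapl1 in each of 4 cases (adjusted p up to 0.0985), and those of Wipi1 and Becn1 in 3 of 4 each (up to 0.182 and 0.103). The 3 Nrf2-/- comparisons share libraries, and in each of them genotype and cell line cannot be told apart. Of 12 listed duct markers, Cdh1 and Epcam were called higher and Pax2, Pax8, Gata3 and Scnn1a lower in Nrf2-/- than in WT cells with SFN under isosmotic conditions. In that comparison 15.7% of all genes were called higher and 18.4% lower. The summed level of the 12 was 2090 to 4878 CPM in the WT and 2340 to 2973 CPM in the Nrf2-/- libraries, and the part of these markers in the values above was not tested.

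A list of 66 further autophagy genes was read beside the 10, and all 66 passed the filter on low counts. At 6 h of stress with DMSO, 18 were called higher and 25 lower (23.9% and 22% of all genes), and with SFN 16 and 26 (24.7% and 22.9%). In Nrf2-/- cells, 15 were called higher and 15 lower under isosmotic conditions (15.7% and 18.4% of all genes) and 17 and 11 at 1 h (15.3% and 16.2%). At 1 h of stress few were called, 3 higher and 1 lower with DMSO (7.1% and 4.11% of all genes) and 0 and 4 with SFN (5.94% and 3.58%), among them Vmp1, which acts in membrane growth and was lower in both (−0.65 and −0.44). With SFN under isosmotic conditions, 1 of the 66 was called, beside 1.09% of all genes higher and 1.76% lower. It was Sesn2 (sestrin 2, a stress-induced inhibitor of mTORC1 signalling), at 11.6 and 12.2 CPM with DMSO and 24.8 and 25.7 CPM with SFN (log2 fold change 1.08, SE 0.13, adjusted p = 0.000232). None was called with SFN at 1 h or 6 h by edgeR or DESeq2, with 2 and 3 of the 66 at an unadjusted p under 0.05. After 1 h of stress in Nrf2-/- cells 3 were called lower (2.81% of all genes), Zkscan3 (−0.86), Vmp1 (−0.40) and Atg16l1 (−0.37). Between 1 h and 6 h with DMSO 18 were called higher and 24 lower (20.4% and 22% of all genes), and in SFN-treated Nrf2-/- against DMSO-treated WT cells 17 and 12 (18% and 20.8%). At 6 h with DMSO the median log2 fold change of the 66 was −0.07, beside 0.05 over all genes.

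By role, the largest increases at 6 h were in the group of 13 genes around TFEB and mTORC1. Besides regulators, this group held the TFEB relatives Tfe3 and Mitf and the transcription factors Foxo3 and Zkscan3. With DMSO, 9 of the 13 were called higher, Tfe3 included, and 2 lower, Mitf and Zkscan3 (−0.74), beside 23.9% and 22% of all genes. With SFN, 7 were called higher and 3 lower, with Sesn2 among those lower (−0.73). Ddit4 (REDD1), an inhibitor of mTORC1, had 16.8 and 17.2 CPM before stress and 145 and 152 CPM at 6 h, a log2 fold change of 3.12 (SE 0.32, adjusted p = 8.21e-06). Flcn (folliculin), which acts on the Rag GTPases that hold TFEB in the cytoplasm, had 33.2 and 29.0 CPM before and 222 and 227 CPM at 6 h (2.85, SE 0.15, adjusted p = 3.61e-09). Both were called higher at 6 h with SFN as well (2.51 and 2.38), and in neither treatment did the libraries overlap. Tfeb itself was not called in any comparison and lay between 9.66 and 13.4 CPM in all 16 libraries. Its relative Tfe3, named here after its values were seen, had 45.9 and 46.2 CPM before and 84.9 and 85.6 CPM at 6 h (0.89), and Mitf, a lowly expressed relative, had 2.95 and 1.72 CPM before and 0.406 and 0.556 CPM at 6 h (−2.28). In Nrf2-/- cells with SFN, Tfe3 (0.50) was called higher and Mitf (−3.36) and Flcn (−0.52) lower under isosmotic conditions.

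**Figure D4:**
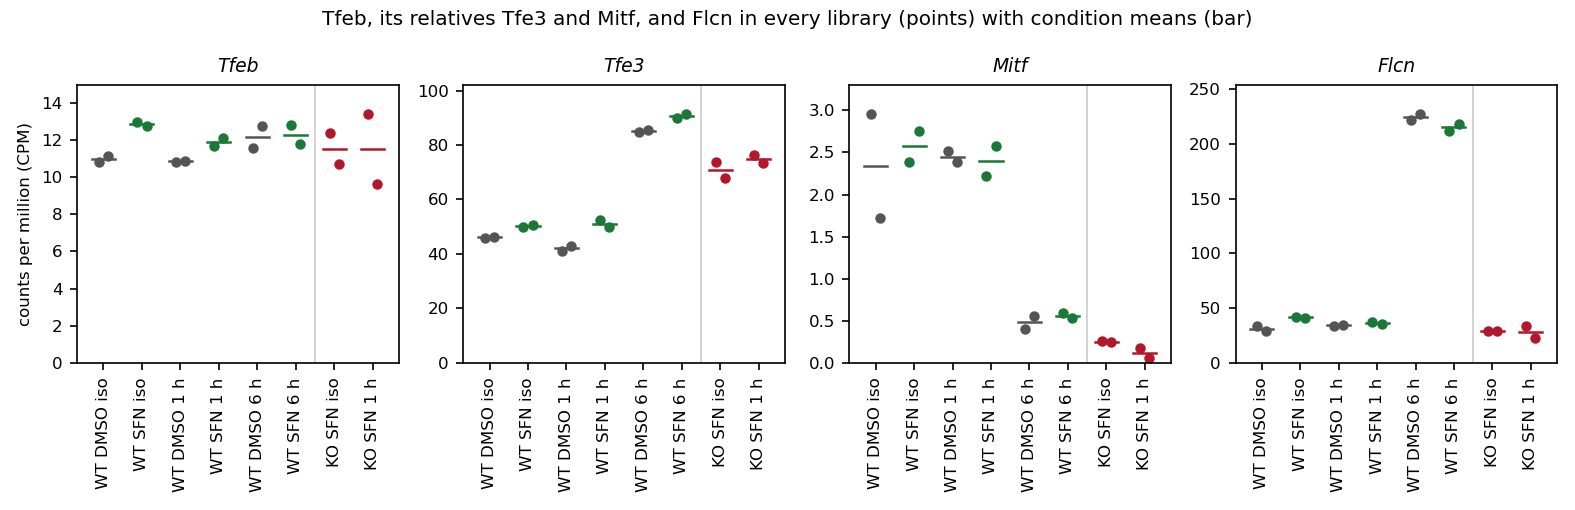
Level in CPM after TMM normalization (y axis, from 0) of Tfeb, its relatives Tfe3 and Mitf, and Flcn across the 8 conditions (x axis). Points are single libraries and bars the mean of 2 libraries, grey for WT DMSO, green for WT SFN and red for Nrf2-/- SFN. Tfeb stays between 9.66 and 13.4 CPM, while Flcn is at 212 to 227 CPM in the libraries at 6 h.

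The groups that build the autophagosome moved in both directions at 6 h, when 23.9% of all genes were called higher and 22% lower with DMSO. In the ULK complex, Atg101 was higher (1.33) and Ulk2 (−0.68) and Atg13 (−0.36) lower with DMSO. In the lipid kinase complex, Uvrag, which directs the complex to endosomes, was higher (34.8 and 37.9 CPM before, 170 and 171 CPM at 6 h, log2 fold change 2.23), as were Atg14 (0.46) and Nrbf2 (0.45). Its subunit Pik3r4 (−1.04), the catalytic Pik3c3 (−0.39) and the regulator Ambra1 (−1.14) were lower. Of the 11 genes of the conjugation systems that attach ATG8 proteins, 7 were lower, among them Atg16l2 (−1.89) and the protease Atg4c (−1.58), and 2 were higher, Atg12 (0.63) and Atg16l1 (0.62). Of 8 genes of fusion with the lysosome, 3 were lower, Stx17 (−1.35), Snap29 (−0.79) and Epg5 (−0.46), and none was called higher. Of 8 genes of membrane growth, Atg2b (0.50) and Wdr45b (0.28) were higher and Tmem41b (−0.55) and Vmp1 (−0.47) lower. Among 15 other cargo receptors, 6 were lower and 1, Rtn3 (0.28), was higher, while Sqstm1 was higher by 0.53. Of the genes named for this comparison, Epg5, Pik3c3, Atg13, Atg14, Rtn3, Wdr45b and Tmem41b lost their call under at least 1 other scaling or filter. Over all 12 alternatives, the call was kept in 4 for Atg13, in 6 for Epg5 and Pik3c3 and in 7 for Atg14 and Rtn3. It was kept in 8 for Wdr45b, Tmem41b and Nrbf2, in 10 for Atg2b and in 11 for Ulk2. With SFN the calls of the ULK complex were the same 3, and those of the lipid kinase complex the same 6 genes. The other groups differed with SFN (24.7% of all genes higher and 22.9% lower). In fusion 1 gene, Rab7 (0.23), was higher and 5 were lower. In membrane growth 1 was higher and 2 were lower, with Atg2a (−0.55) among them. In conjugation 2 were higher and 6 lower, and among receptors 1, Sec62 (0.25), was higher and 5 were lower.

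In Nrf2-/- cells with SFN under isosmotic conditions, 4 of 15 listed receptors were called lower and 3 higher (18.4% and 15.7% of all genes). Optn (−1.15), Calcoco1 (−1.02), Tex264 (−0.68) and Nbr1 (−0.43) were lower. The mitophagy receptors Bnip3 (0.99) and Fundc1 (0.99) and the endoplasmic reticulum receptor Retreg1 (0.67) were higher. At 1 h the same 7 were called in the same directions, and Bnip3l (0.54) was called higher as well (16.2% of all genes lower and 15.3% higher). Of these, Nbr1, Tex264, Retreg1 and Bnip3l kept their call at 1 h in 6 of 10 alternatives each, with adjusted p up to 0.342, and Bnip3l ranged from 0.14 to 0.86. Ddit4 (1.65), Rragd (1.48) and Foxo3 (1.00) led the genes called higher under isosmotic conditions. Beside 6 h of stress in WT cells with DMSO, directions were mixed. Among others, Stx17 (0.73), Uvrag (−0.74), Flcn (−0.52) and Atg101 (−0.63) were called in the opposite direction. Ddit4, Tfe3 (0.50) and Mitf (−3.36), among others, were called in the same direction. The 6 h values of Stx17 and Uvrag were −1.35 and 2.23 with DMSO, in libraries that the Nrf2-/- comparison does not use, and −1.28 and 2.08 with SFN, where the isosmotic libraries are shared.

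**Figure D5:**
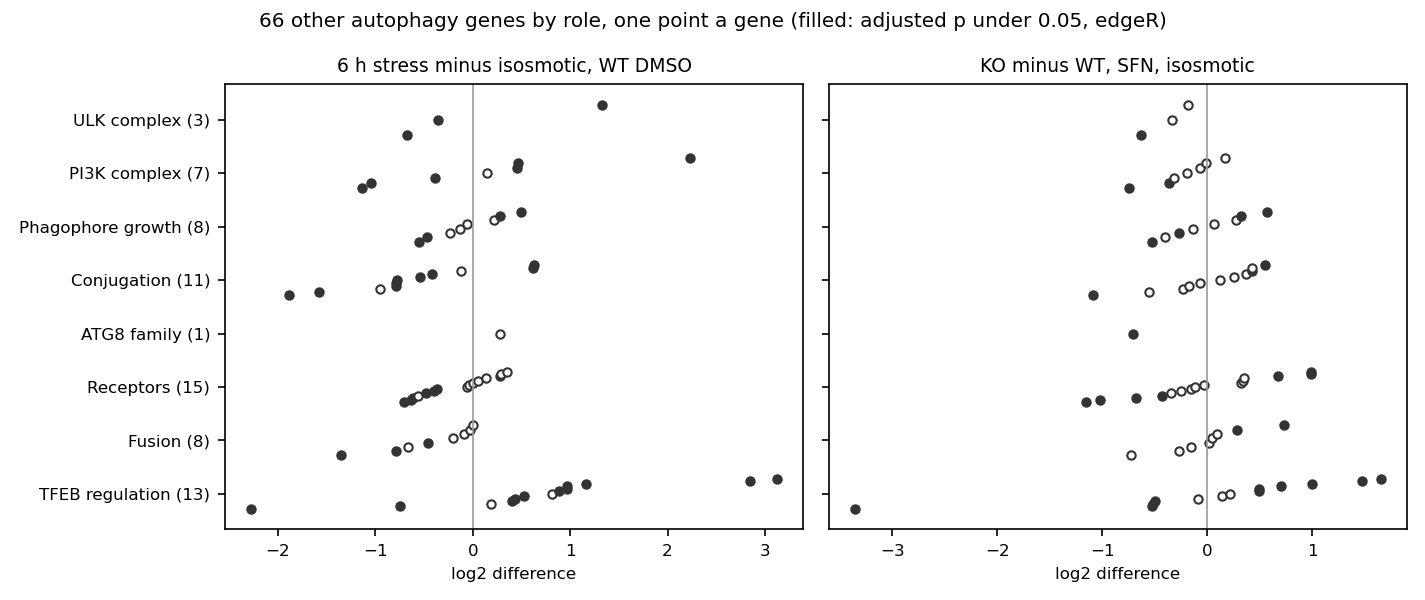
Log2 difference (x axis) of 66 other autophagy genes in groups by role (rows, with the number of genes), for 6 h of stress against isosmotic WT cells with DMSO (left) and for Nrf2-/- against WT cells with SFN under isosmotic conditions (right). Each point is a gene, filled at an adjusted p under 0.05 (edgeR), spread vertically for visibility only. At 6 h Ddit4 (3.12) and Flcn (2.85) lie farthest right and Mitf (−2.28) farthest left.

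Across the 8 condition means of log2 CPM, some pairs of the 10 genes ran in parallel or opposite, and others did not. Gabarapl2 and Becn1 ran in parallel (Pearson r = 0.959 over 8 conditions), as did Wipi1 and Ulk1 (0.953) and Map1lc3a and Gabarapl1 (0.92), whereas Gabarapl2 and Wipi1 ran opposite (−0.979), as did Map1lc3a and Rb1cc1 (−0.962). Other pairs were weakly related, among them Sqstm1 and Map1lc3a (0.0951), Tfeb and Map1lc3a (0.116) and Sqstm1 and Rb1cc1 (−0.288). These values share libraries, and the step between WT and Nrf2-/- cells weighs on them, so they are given as a description. Among 4024 genes with a mean of at least 10 CPM and a range of condition means of at least 1 on the log2 scale, the pattern of Sqstm1 was most closely followed by Tshz1 (r = 0.949 over 8 conditions), Me1 (0.897), Smcr8 (0.879), Vegfa (0.871) and Ampd3 (0.857).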

How the data were processed

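The deposited files held counts of reads per gene for each library, which the authors made without normalization. The submitters' processing notes name Bowtie2, SAMtools, featureCounts and the build mm10, versions not given, while the study's methods name another aligner, and whether counting used the strand is not given in the sources used here. Lines with a blank gene name were dropped. Counts with an even number made up 58.0% to 68.5% of values up to 10 counts. The 10 genes and all lists were chosen with earlier results of these data known.

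Counts were fitted in R 4.3.3 with edgeR 4.0.16 (filterByExpr, TMM factors, quasi-likelihood F test, 1 model over all 16 libraries without a replicate term), and p-values were adjusted by Benjamini-Hochberg over the 19509 genes tested. A gene was called at an adjusted p under 0.05. Library totals of 34484296 to 50774875 counts set the precision, and with 2 libraries a condition an exact permutation test cannot go below p = 0.333, so none is given. The fit was tested on simulated data. There, 67 of 98 genes changed by 1 on the log2 scale were called (68.4%), and 102 of 102 changed by 2. Smaller changes were not simulated, so a gene that was not called is not shown to be unchanged. Levels are TMM-scaled CPM, per kilobase of merged exons (GENCODE M21) where genes are compared. Named besides the 10 were the 8 other autophagy genes with the largest called change in a comparison, groups with 5 or fewer calls, the Nrf2 targets, and the 5 genes most like Sqstm1. Sesn2 at 6 h and Tfe3 were added after their values were seen.

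Alternatives were DESeq2 1.42.0, size factors by RLE, leaving genes unfiltered, a minimum of 10 counts in each library, a replicate block, only the libraries compared, only the 12 WT libraries and each replicate left out. A fit without both Nrf2-/- SFN 1 h libraries was chosen after seeing the data. Same-numbered replicates did not deviate together (28 pairs of conditions, correlations −0.0794 to 0.123, 1 above 0.1), so the numbers were not taken to pair the samples.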

Additional observations from a re-analysis of the deposited data

Results flagged for a closer look

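The response of Sesn2, the stress-induced inhibitor of mTORC1 signalling, to SFN differed between isosmotic conditions and 6 h of stress. The SFN difference was 1.08 on the log2 scale under isosmotic conditions (11.6 and 12.2 CPM with DMSO, 24.8 and 25.7 CPM with SFN) and −0.05 at 6 h (16 and 15.6 CPM with DMSO, 14.6 and 15.8 CPM with SFN). The interaction term was −1.13 (SE 0.19, adjusted p = 0.0069, edgeR's quasi-likelihood test). Sesn2 was the only 1 of the 66 other autophagy genes called in that test, beside 0.759% of all genes, and nothing about the list is read from 1 call. The value lay between −1.20 and −1.08 under the alternatives, and the call was lost without replicate 1 of the 6 h SFN libraries (−1.08, adjusted p = 0.0585). Time after SFN and stress cannot be told apart in this comparison. After 1 h of stress, Sesn2 was already lower than under isosmotic conditions in SFN-treated WT cells (log2 fold change −0.88, SE 0.13, adjusted p = 0.000705, edgeR). With DMSO it was not called at 1 h. The test of the SFN difference at 1 h called none of the 66.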

How the results depend on the processing

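Refits were read for the log2 fold changes of the 10 genes that were called or had an unadjusted p under 0.05, and for Sqstm1 in every comparison. Over these 48 values (555 refits), 474 refits kept direction and call, 49 lost the call, 26 gained it and 6 changed sign. The sign changes were all of Sqstm1 where its fold change was small, and Sqstm1 was the only gene entered whatever its p-value. Sign changes of the other genes where they were far from a call were therefore not counted. Leaving out 1 library gave −0.041 to 0.12 after 1 h with SFN (lowest without WT SFN isosmotic replicate 2), −0.40 to 0.044 for Nrf2-/- against WT at 1 h (highest without Nrf2-/- 1 h replicate 2) and −0.15 to 0.32 after 1 h in Nrf2-/- cells (lowest without Nrf2-/- 1 h replicate 1). In the tests of a difference it gave −0.16 to 0.000257 at 6 h with SFN (highest without WT SFN isosmotic replicate 1), and −0.18 to 0.28 for Nrf2-/- at 1 h (lowest without Nrf2-/- 1 h replicate 1, and −0.018 without WT SFN isosmotic replicate 1). For the other autophagy genes only values called in the main fit were entered, so no call could be gained. Of 1643 refits of these, 1403 kept their call and 240 lost it. The cause of a change was not tested unless stated.

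Counts of calls that moved by over 1.5 times are given first for the 10 genes. With SFN 1 was higher under isosmotic conditions with DESeq2, no filter, only the compared libraries, only the WT libraries or without both Nrf2-/- 1 h libraries, and with only the WT libraries 1 was lower. At 1 h 1 was higher in these settings and with RLE, except 2 with only the compared libraries. At 6 h 1 was higher with only the compared libraries, only the WT libraries or without both Nrf2-/- 1 h libraries. After 1 h of stress with DMSO 2 were lower with only the WT libraries or without both Nrf2-/- 1 h libraries, and with SFN 1 was higher with only the WT libraries. After 6 h with DMSO 2 were lower with no filter, only the compared or only the WT libraries, and 3 without both Nrf2-/- 1 h libraries. With SFN 1 was lower with DESeq2, RLE or at least 10 counts. For Nrf2-/- cells 5 were lower under isosmotic conditions without both 1 h libraries, and at 1 h 0 were higher and 1 lower with only the compared libraries. Smaller changes included 4 higher at 6 h with DMSO (Becn1 added) with at least 10 counts, only the compared libraries, only the WT libraries or without both Nrf2-/- 1 h libraries, and 4 higher at 6 h with SFN in these settings, DESeq2 and RLE, with 3 lower with only the WT libraries or without both Nrf2-/- 1 h libraries.

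Calls higher and lower among the other 66 changed with SFN under isosmotic conditions to 5 higher with DESeq2 or no filter, 8 with only the compared libraries, and 14 higher and 3 lower with only the WT libraries or without both Nrf2-/- 1 h libraries. With only the compared libraries they were 2 higher at 1 h and 1 higher and 1 lower at 6 h. After 1 h of stress with DMSO 5 were higher with DESeq2 or no filter, 0 with at least 10 counts, 8 (2 lower) with only the compared libraries, 9 (3 lower) with only the WT libraries and 8 (5 lower) without both Nrf2-/- 1 h libraries, and with SFN 1 was higher in the last 3. Without those 2 libraries 23 were lower in isosmotic Nrf2-/- cells. With only the compared libraries 2 were higher and 2 lower in Nrf2-/- cells at 1 h. After 1 h in Nrf2-/- cells 1 was higher with DESeq2 or no filter and 0 were lower with only the compared libraries. In the test of the SFN difference at 1 h 1 was lower with DESeq2 and 2 with only the compared, only the WT or all but the Nrf2-/- 1 h libraries. At 6 h these 3 gave 2, 4 and 3 lower, and only the WT libraries 1 higher.

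Leaving out 1 library at a time, where the lone library is assumed to vary like the others, gave 3 higher and 0 to 1 lower of the 10 at 6 h with DMSO, 2 to 3 and 0 to 2 with SFN, and 3 and 1 to 2 between 1 h and 6 h. For Nrf2-/- cells it gave 1 to 2 higher and 2 to 3 lower under isosmotic conditions, 1 to 3 and 1 to 5 at 1 h, 2 to 3 and 2 to 3 against DMSO-treated WT cells, 0 to 4 and 0 to 1 after 1 h of stress, and 0 to 1 and 0 to 1 in its test of the difference. For the other 66 it gave 1 to 2 higher with SFN under isosmotic conditions, 0 to 3 higher after 1 h with DMSO, 1 to 2 lower after 1 h with SFN, 11 to 13 higher and 17 to 20 lower at 6 h with DMSO, 11 to 16 and 15 to 20 between 1 h and 6 h, and 12 to 14 and 20 to 21 at 6 h with SFN. For Nrf2-/- cells it gave 9 to 12 and 9 to 13 under isosmotic conditions, 7 to 24 and 5 to 17 at 1 h, 11 to 15 and 9 to 11 against DMSO-treated WT cells, 0 to 10 and 1 to 9 after 1 h of stress, and 0 to 6 and 0 to 3 in its test of the difference, and 0 to 1 were lower in the SFN difference at 6 h.

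With the replicate block Sqstm1 with SFN had 0.41 (adjusted p = 0.114) under isosmotic conditions and 0.67 (adjusted p = 0.11) at 1 h. The block changed no count of calls among the 10, and over all genes it moved the SFN calls at 6 h from 8 to 2.

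Over all genes the SFN calls were 555 under isosmotic conditions, 18 at 1 h and 8 at 6 h, and became 1124, 53 and 22 with DESeq2, 1103, 42 and 16 with no filter, 1097, 809 and 106 with only the compared libraries, 2875, 101 and 46 with only the WT libraries, and 2786, 92 and 41 without both Nrf2-/- 1 h libraries. At 6 h RLE gave 4. The calls after 1 h of stress were 2186 with DMSO, 1857 with SFN and 1399 in Nrf2-/- cells, and 654, 535 and 295 with at least 10 counts. With DMSO they were 3589 with only the compared libraries, 4334 with only the WT libraries and 4253 without both Nrf2-/- 1 h libraries, with SFN 3466 and 3353 in the last 2, and in Nrf2-/- cells 2130 with no filter and 7 with only the compared libraries. Nrf2-/- against WT cells at 1 h fell from 6154 to 1651 with only the compared libraries. The tests of a difference (109 for SFN at 1 h, 148 for SFN at 6 h and 24 for Nrf2-/- cells) gave 285, 375 and 124 with DESeq2, 257, 310 and 160 with no filter, 391, 456 and 0 with only the compared libraries, 585 and 803 with only the WT libraries, 582 and 760 without both Nrf2-/- 1 h libraries, and 10 for Nrf2-/- cells with at least 10 counts.

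The 10 genes had at least 264 counts in every library. Other limits are 2 libraries a condition, the wide spread between the Nrf2-/- SFN 1 h libraries, 1 Nrf2-/- line without a DMSO group, and no isosmotic libraries matched in time to 6 h.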
